A study of Mus musculus with 5 samples.

Results

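The step from 0.5 h to 1 h after the start of neural differentiation was described from 2 of the 5 ATAC-seq libraries of the series, with 1 library per time. All 34714 sites of the deposited table were compared, which is every site in the series. ATAC-seq maps open chromatin through the cuts of a transposase. The cells were C17.2, an established mouse neural stem cell line of the strain CD1 x C57BL/6, taken as nuclei at 0.5 h and at 1 h after a medium with fetal bovine serum was exchanged for serum-free medium with N2 supplement. The other libraries, at 0, 1.5 and 2 h, came from the same line, and that of 0 h is the control. Both compared libraries had received the induction medium, so the step holds no untreated arm of its own.

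Each site is a short interval, with a median of 5 bp, listed as a transcription start site, and 33952 sites carry 1 of 8034 gene symbols. The value of a site in a library is a whole number from the library's BED file. It was taken to count the BED entries (peaks or summits) over the site, which is inferred from the values. A site with 0 entries is called uncovered, which does not show that its chromatin was closed. A site was called lost when it held 1 or more entries at 0.5 h and 0 at 1 h, and gained in the reverse case. With 1 library per time there was no replicate error, no test was possible, and every difference is one between a pair of libraries. Read depth is unknown. The libraries held 56773 entries at 0.5 h and 45254 at 1 h, a ratio of 1.25, and this difference in total moves with every loss given below. Its part in them was not tested.

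Start sites of active genes usually lie in chromatin kept free of nucleosomes by transcription factors and remodelling complexes, and peak callers report such stretches as intervals with 1 or more summits. Withdrawal of serum and its growth factors alters signalling through MAP kinases and PI3K. Immediate early genes such as Jun and Fos answer the addition of serum or growth factors within minutes. Neural differentiation replaces factors that hold the progenitor state, such as Notch effectors, by proneural factors of the bHLH class. Exons and introns were not annotated here. Of the progenitor genes with a listed site, Hes1, a Notch effector, held 1 entry at 0.5 h and 1 at 1 h. Nes, the gene of the progenitor filament nestin, Pax6 and the RNA-binding protein gene Msi1 held 0 at both times. Notch1 was lost, from 1 entry to 0. Of the 24 measured genes of the progenitor list, 15 were covered at 0.5 h and 3 of these were lost. Markers of other cells were few in the table. Over 3 astrocyte, 5 oligodendrocyte lineage, 2 neuron, 1 microglia and blood, 1 mesenchymal and 1 endothelial or epithelial marker genes, the astrocyte glutamate transporter gene Slc1a2 was the only gene lost, from 1 entry to 0, and no gene was gained. Olig2, Mbp, the neuron marker Rbfox3 and the epithelial marker Epcam held 0 at both times. Other markers were covered at both times. These were 2 oligodendrocyte lineage genes, among them Pdgfra with 4 and 3 entries, and 1 astrocyte gene. The neuron, the microglia and blood, and the mesenchymal markers also had 1 such gene each.

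The sequences around the scored sites of some named lost and gained genes show where in a promoter the scored interval lies. For each direction, 3 named genes whose site falls in the RefSeq promoter window of build GRCm38.p6 are printed 5′ to 3′ with the site in capitals. The window runs from 250 bases before to 50 after an annotated start. Site positions were taken as 1-based. The lost sites are those of Adgrl3, an adhesion receptor of the latrophilin family (chr5:81020502-81020801, plus strand), Crlf2, a cytokine receptor subunit (chr5:109558944-109559243, minus strand), and Trak1, an adaptor between mitochondria and kinesin (chr9:121297252-121297551, plus strand).
Adgrl3: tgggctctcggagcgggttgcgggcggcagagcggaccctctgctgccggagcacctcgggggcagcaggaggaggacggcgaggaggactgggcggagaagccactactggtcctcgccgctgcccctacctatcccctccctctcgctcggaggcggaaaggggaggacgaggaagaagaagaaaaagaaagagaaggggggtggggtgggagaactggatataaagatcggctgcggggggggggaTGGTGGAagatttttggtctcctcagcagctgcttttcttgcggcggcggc
Crlf2: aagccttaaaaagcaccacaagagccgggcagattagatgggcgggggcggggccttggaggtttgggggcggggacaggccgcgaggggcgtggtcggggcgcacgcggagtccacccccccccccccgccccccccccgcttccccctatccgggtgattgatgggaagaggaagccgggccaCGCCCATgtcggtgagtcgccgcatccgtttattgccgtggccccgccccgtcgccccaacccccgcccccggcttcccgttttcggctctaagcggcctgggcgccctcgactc
Trak1: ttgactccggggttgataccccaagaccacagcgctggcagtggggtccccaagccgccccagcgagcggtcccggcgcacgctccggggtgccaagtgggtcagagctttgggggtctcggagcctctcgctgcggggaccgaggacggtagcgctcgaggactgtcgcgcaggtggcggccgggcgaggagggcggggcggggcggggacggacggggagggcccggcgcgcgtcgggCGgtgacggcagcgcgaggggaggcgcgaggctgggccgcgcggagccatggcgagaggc
The gained sites are those of Tmod1, which caps actin filaments (chr4:46038972-46039271, plus strand), Celf2, an RNA-binding splicing factor (chr2:6871986-6872285, minus strand), and Chn1, a GTPase-activating protein of Rac (chr2:73775297-73775596, minus strand).
Tmod1: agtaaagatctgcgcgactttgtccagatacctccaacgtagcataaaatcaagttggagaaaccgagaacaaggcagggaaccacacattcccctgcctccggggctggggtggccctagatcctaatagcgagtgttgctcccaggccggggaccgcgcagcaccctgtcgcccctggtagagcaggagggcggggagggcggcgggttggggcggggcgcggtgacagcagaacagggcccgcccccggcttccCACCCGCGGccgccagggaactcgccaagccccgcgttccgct
Celf2: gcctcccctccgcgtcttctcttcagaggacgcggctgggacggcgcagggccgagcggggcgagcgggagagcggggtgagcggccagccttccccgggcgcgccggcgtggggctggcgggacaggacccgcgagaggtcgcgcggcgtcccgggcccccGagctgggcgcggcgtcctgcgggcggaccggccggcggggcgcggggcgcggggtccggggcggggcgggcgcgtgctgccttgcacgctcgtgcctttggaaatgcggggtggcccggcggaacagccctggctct
Chn1: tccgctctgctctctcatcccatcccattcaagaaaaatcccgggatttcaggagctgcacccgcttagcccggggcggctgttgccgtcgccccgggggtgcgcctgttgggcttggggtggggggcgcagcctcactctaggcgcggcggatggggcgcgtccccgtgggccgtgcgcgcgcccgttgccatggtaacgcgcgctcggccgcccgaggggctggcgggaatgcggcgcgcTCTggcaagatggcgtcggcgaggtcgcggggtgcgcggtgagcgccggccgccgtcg
All 6 windows are rich in G and C, from 64.7% in Adgrl3 to 80.3% in Celf2, and hold between 21 and 48 CpG dinucleotides. All 6 contain GGGCGG, the core bound by Sp factors, and Adgrl3 also contains TATAAA.

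Far more sites were lost than gained. Of the 34714 sites, 2874 were lost (8.28% of all sites) and 278 were gained (0.801%). The lost sites were 14.1% of the 20365 covered at 0.5 h (Wilson 95% interval 13.6 to 14.6%), and the gained sites were 1.94% of the 14349 uncovered then (1.72 to 2.18%). These intervals cover counting error over sites only. Neighbouring sites share their values, so sites within 500 bp of each other were also merged into 9217 regions, of which 411 were lost (4.46% of all regions) and 50 gained (0.542%). Each gene was given the site with its highest mean over the 5 libraries. By this value 382 of 8034 genes were lost (4.75% of all genes, and 6.21% of the 6152 covered at 0.5 h) and 47 were gained (0.585%, and 2.5% of the 1882 uncovered at 0.5 h). A further 5770 genes were covered at both times and 1835 at neither. Scaling of the libraries cannot change a loss or a gain, since 0 stays 0. Scaling therefore cannot address the lower total of the 1 h library, whose part was not tested. With coverage called at 2 or more entries, 3909 sites were lost and 910 gained, and 754 genes were lost and 255 gained.

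Differences in entry number leaned the same way. By site, 8924 held fewer entries at 1 h (25.7%) and 3399 held more (9.79%). By gene, 2235 genes held fewer (27.8%), 1063 held more (13.2%) and 4736 held equal numbers. On the log2(entries + 1) scale, which understates differences of low genes, 630 genes were at least 2-fold lower (7.84%) and 99 at least 2-fold higher (1.23%). When the libraries were scaled to equal total entries, 310 genes were at least 2-fold lower and 102 higher. That scaling moved the median log2 ratio of genes covered at both times from 0 to 0.219. It turned the order of any difference, to 2091 lower and 4108 higher, because a gene with equal whole numbers then counts as higher. Among the 5770 genes covered at both times, 1853 held fewer and 1016 more, and the mean number of entries was 2.8 at 0.5 h and 2.56 at 1 h. Most of these differences were small, with 2195 of exactly 1 entry, 150 toward fewer by 3 or more and 20 toward more by 3 or more.

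The neighbouring steps are given only as counts, since each shares a library with this step. Between 0 and 0.5 h, 4181 sites were gained and 328 lost, between 1 and 1.5 h 5516 were gained and 62 lost, and between 1.5 and 2 h 687 were gained and 1120 lost.

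**Figure D1:**
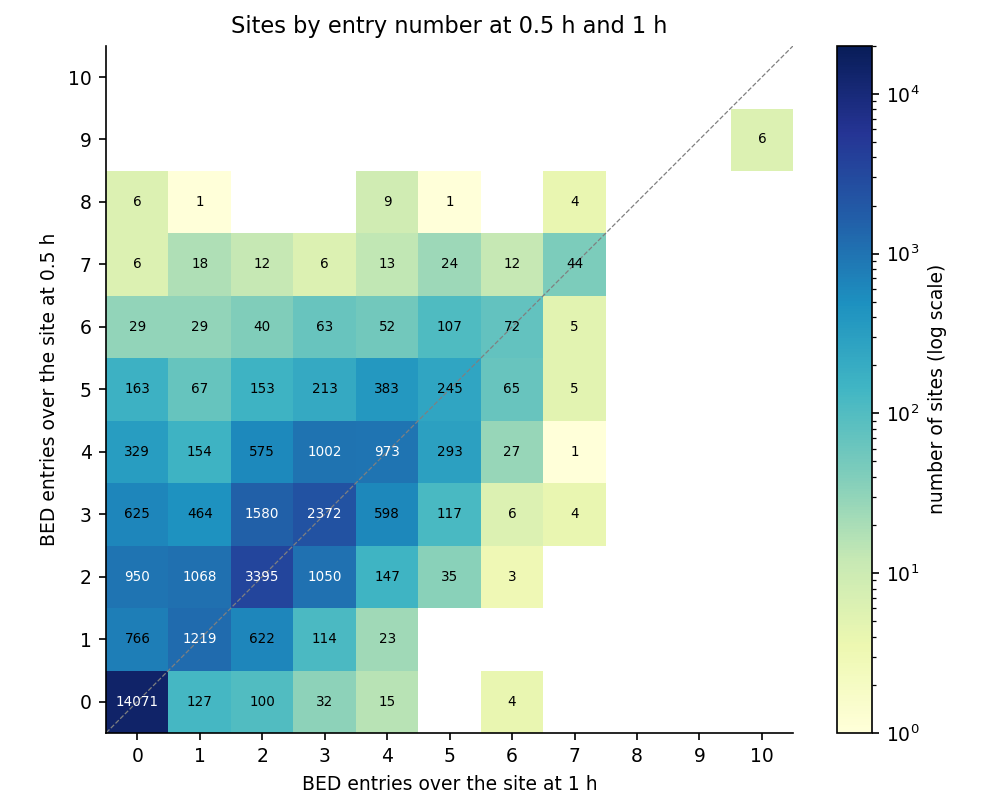
Number of sites by BED entries at 0.5 h (vertical axis) and at 1 h (horizontal axis), with the number printed in each cell, colour on a log scale and a dashed line at equal values. The left column holds the 2874 lost sites above the 14071 sites uncovered at both times, the bottom row holds the 278 gained sites, and more sites lie above the dashed line than below it.

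Loss was most frequent at sites with 1 entry, but reached sites with many. Of 2744 sites with 1 entry at 0.5 h, 27.9% were lost. Of 6648 sites with 2 entries the share was 14.3%, and of 5766 with 3 it was 10.8%. Of 1294 sites with 5 entries 12.6% were lost, and of 559 sites with 6 to 9 entries 7.33% (Wilson 95% interval 5.45 to 9.8%). Counted by gene, 18.3% of 726 genes with 1 entry were lost, 5.9% of 2100 with 2, and 6.38% of 141 genes with 6 to 9 entries (3.39 to 11.7%). The gained sites held few entries at 1 h, with 127 at 1, 100 at 2, 32 at 3, 15 at 4 and 4 at 6. The highest value at 0.5 h, 9 entries, was held by only 6 sites, and all of these held 10 at 1 h.

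Most lost sites lay in regions that stayed covered at another site. Of the 2874 lost sites, 1891 (65.8%) were in regions where another site stayed covered, and 964 (33.5%) were in regions lost whole. Of the 824 regions with both lost and kept sites, 656 (79.6%) had their lost sites at 1 edge, 8 at both edges, and 152 (18.4%) only between kept sites. A region with 1 kept site can only count as an edge case, so this split is partly set by the definition. In regions of 1 gene, 997 lost edge sites lay downstream of all kept sites and 313 upstream of them. More listed sites lie downstream of a 5′ end than upstream, and these counts were not set against the covered sites on each side. Over the 5971 regions covered at both times, the distance from the first to the last covered site summed to 1126 kb at 0.5 h and 982 kb at 1 h. It was shorter at 1 h in 668 regions, by a median of 167 bp, longer in 75, by a median of 110 bp, and equal in 5228. Sipa1l2, a GTPase-activating protein gene, shows such a shift over 18 sites that each held 6 entries at 0.5 h. At 1 h its 8 sites from 65 to 380 bp inside the gene held 0, and its 10 sites from 1 bp inside to 272 bp upstream held 1.

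Loss varied with distance from the annotated 5′ end of the gene. That end is the outermost one of the gene, so a site counted as downstream can lie at another annotated start. The sites of Adgrl3 and Celf2 printed above, 1669 and 524218 bp downstream by this measure, lie in annotated promoter windows. The part of such starts in the shares below was not tested. Among sites within 100 bp upstream of that end, coverage was 75.3% in the earlier library and 71.2% in the later, and 6.56% of the 2074 covered sites were lost (Wilson 95% interval 5.57 to 7.71%). The lost share was 12.4% from 100 to 250 bp downstream, 17.3% from 250 to 500 bp, and 22.7% of 1482 covered sites from 500 to 750 bp (20.7 to 24.9%). It was 15.6% from 1000 to 2000 bp and 19.8% beyond 10000 bp. The order held at low and high entry numbers. Among sites with 1 or 2 entries at 0.5 h, 12% were lost within 250 bp of the 5′ end and 25.4% from 250 to 1000 bp downstream, and among those with 3 or more 7.23% and 13.8%. The median lost site lay 398 bp downstream of the 5′ end, the median gained site 416 bp and the median site covered at both times 214 bp.

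**Figure D2:**
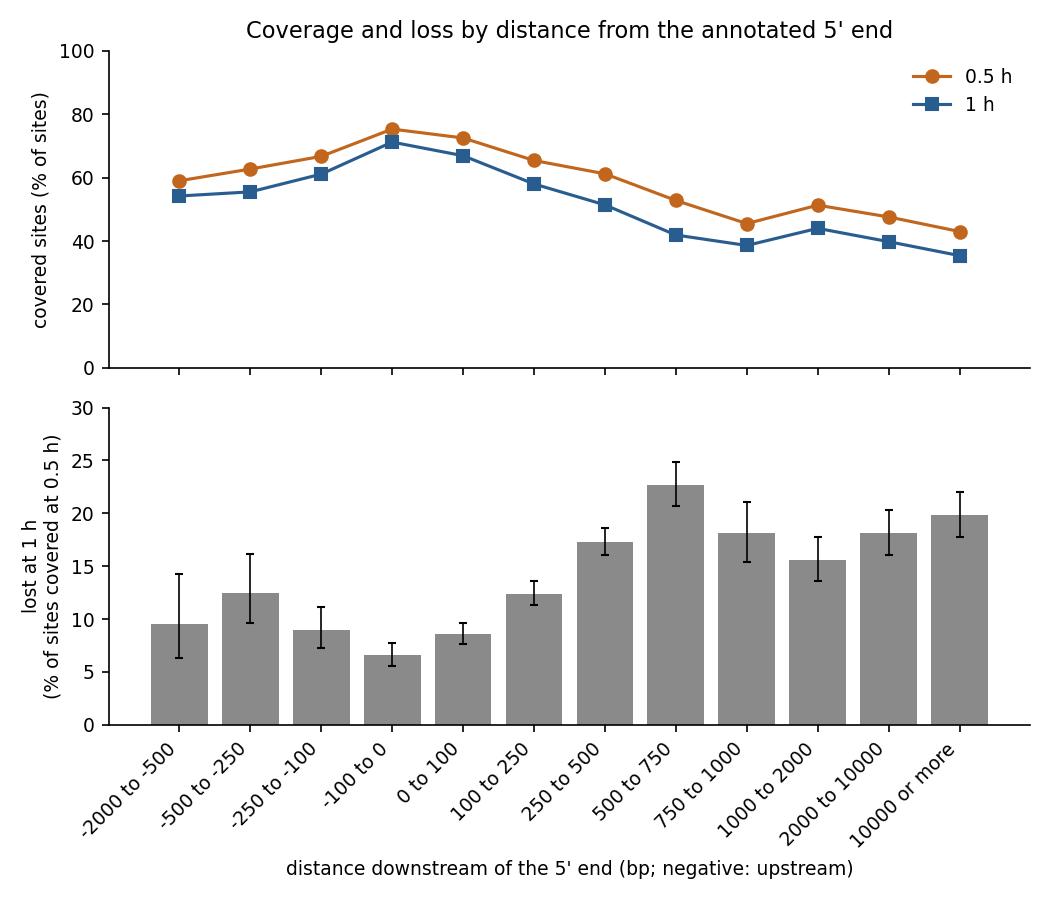
Upper panel: share of sites covered at 0.5 h and at 1 h, in percent, by distance from the annotated 5′ end. This is the outermost 5′ end of the gene and not the nearest annotated start. Lower panel: share of the sites covered at 0.5 h that were lost at 1 h, with Wilson 95% intervals over sites. Coverage was lower at 1 h in every distance class shown, and the lost share was 6.56% just upstream of the 5′ end and 22.7% from 500 to 750 bp downstream.

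The lost genes with the most entries at 0.5 h included signalling, cytoskeletal and chromatin genes. Adgrl3 held 7, 8, 0, 5 and 7 entries at 0, 0.5, 1, 1.5 and 2 h (chromosome 5, 81020751 to 81020757). At this scored site the library of 1 h was thus the only one without an entry. Its other lost sites held 0, 8, 0, 0 and 7. Kifc3, a kinesin directed to the minus end of microtubules, held 7, 8, 0, 5 and 1 (chromosome 8, 95142519 to 95142524, 60305 bp downstream of the annotated 5′ end), and all 3 of its sites were lost. Svil, which encodes an actin-binding protein, stayed covered but held 8, 7, 1, 8 and 1. Crlf2 differed from these in that it was uncovered at 0 h, with 0, 7, 0, 7 and 2 entries. Trak1 held 0, 6, 0, 2 and 4, and all 7 of its sites, from 10 bp upstream to 103 bp downstream of the 5′ end, had the same 5 values.

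Transcription factor genes were among them. For Jun, a subunit of AP-1, the 5 values were 0, 6, 0, 5 and 0 over its only listed site (chromosome 4, 95051546 to 95051551). It was thus covered at 0.5 h and 1.5 h and uncovered at the other 3 times. Zic5, a zinc finger factor of the neural plate and crest, held 0, 5, 0, 6 and 6 (chromosome 14, 122464431 to 122464432). Nr3c1, the glucocorticoid receptor gene, held 0, 5, 0, 7 and 7, and 8 of its 16 sites had fewer entries at 1 h. Zbtb25, a zinc finger factor, held 0, 5, 0, 3 and 1. Tsc22d2, of the TSC22 domain family, held 1, 6, 0, 7 and 8 entries 645 bp downstream of its 5′ end, while its sites from 12 bp upstream to 30 bp inside held 2 at 0.5 h and 2 at 1 h. Loss at this gene therefore touched its downstream sites and not those at the 5′ end.

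The other lost genes named have varied roles. Setd7, a lysine methyltransferase, held 7, 6, 0, 6 and 7 entries at all 3 of its sites (chromosome 3, 51560375 to 51560376 for the site scored). Baz2a, part of a complex that silences ribosomal DNA, held 5, 6, 0, 6 and 2. Ptbp1, a splicing repressor of neuronal exons, held 0, 5, 0, 1 and 0 (chromosome 10, position 79855128), at a region that also carries the symbol E130317F20Rik. Mettl9, a protein histidine methyltransferase, held 0, 6, 0, 4 and 4, in a region shared with Gm9905. Septin5, a septin of nerve terminals, held 0, 5, 0, 1 and 2. Its 7 sites did not move together, with 4 lower and 2 higher at 1 h.

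The gained genes held at most 3 entries at 1 h. Kmt2a, a histone H3 lysine 4 methyltransferase, held 0, 0, 3, 3 and 0 entries at 0, 0.5, 1, 1.5 and 2 h (chromosome 9, 44881167 to 44881168), in a region shared with Gm39326. Med13l, of the Mediator kinase module, held 0, 0, 3, 3 and 3 entries 677 bp downstream of its 5′ end, while another of its 23 sites, 259 bp upstream, had 2 entries at 0.5 h and 0 at 1 h. Kcnn2, a calcium-activated potassium channel gene, and Plppr5, of the plasticity-related lipid phosphatase family, also held 0, 0, 3, 3 and 3. The scored sites of these 3 genes were first covered at 1 h and stayed covered. Other sites of Kcnn2 and Med13l were covered at 0.5 h, that of Kcnn2 with 1 entry. H2ac4, a histone H2A gene, held 3, 0, 3, 2 and 2, and Pkdcc, a secreted tyrosine kinase gene, held 2, 0, 3, 2 and 2, so that 0.5 h was the only time without an entry. Histone genes of a cluster are near copies of one another, and the value of H2ac4 is uncertain for that reason.

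The other gained genes named held 2 entries at 1 h. Unc5a, a netrin receptor, held 0, 0, 2, 4 and 4 entries, and Chn1 0, 0, 2, 2 and 2. Clstn2, a calsyntenin of the postsynaptic membrane, held 0, 0, 2, 2 and 0, and the ephrin receptor gene Epha5 held 2, 0, 2, 2 and 1. Celf2 held 2, 0, 2, 4 and 2 at a site 524218 bp downstream of its annotated 5′ end. Its 13 sites did not move together, with 4 higher and 4 lower at 1 h. Tmod1 held 1, 0, 2, 2 and 2, with more entries at 1 h at all 5 of its sites. Lncpint, a long noncoding RNA induced by p53, held 2, 0, 2, 2 and 1. Pde8a, a cyclic AMP phosphodiesterase, held 0, 0, 2, 1 and 0, and Txnrd1, the cytosolic thioredoxin reductase, held 1, 0, 2, 2 and 2. Of these 9 genes, 4 were uncovered at 0 h at the scored site.

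**Figure D3:**
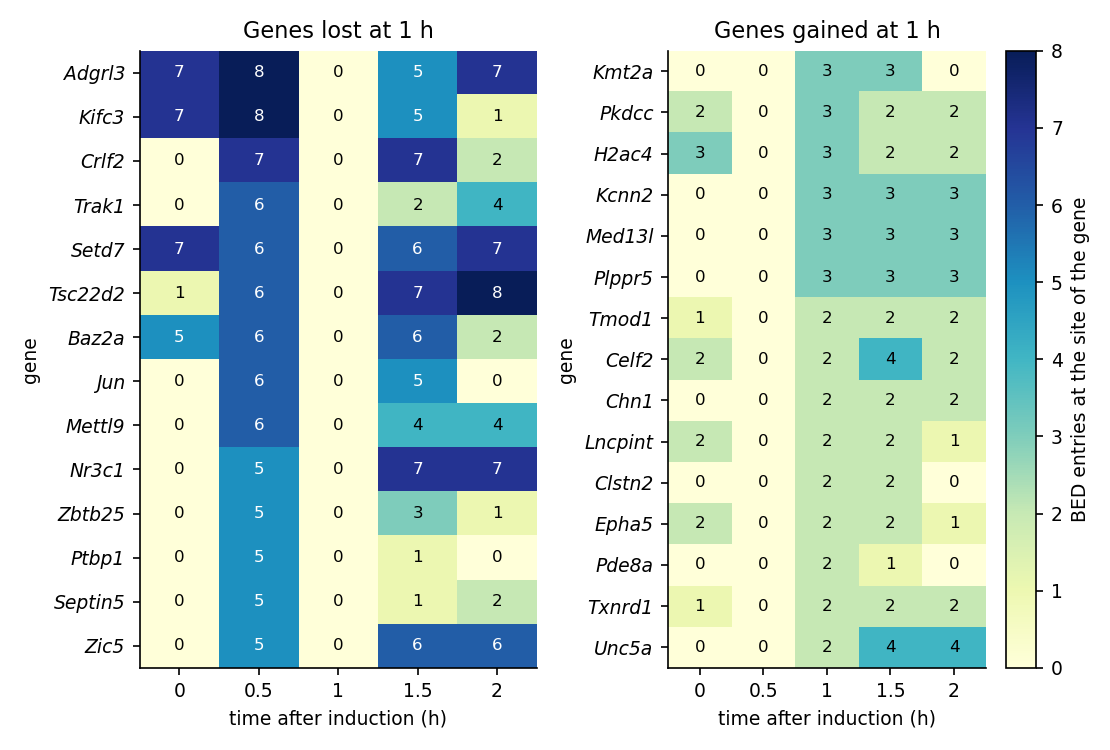
BED entries at the scored site of 14 of the 15 lost genes (left) and the 15 gained genes (right) with the most entries, by time after induction, with 1 library per time. The lost genes held 5 to 8 entries at 0.5 h and all held entries again at 1.5 h, and the gained genes held 2 or 3 at 1 h and all held entries at 1.5 h.

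Higher values among gained sites lay outside the scored site of their gene, and these were chosen after their values were seen. Dab2ip, a Ras GTPase-activating protein, had 4 gained sites with 6 entries at 1 h, the first at chromosome 2, 35661303 to 35661307, and its scored site held 3 at 0.5 h and 6 at 1 h. Nova1, a neuronal splicing regulator, had 8 gained sites with 4 entries at 1 h, within chromosome 12, 46819050 to 46819174, all with 2, 0, 4, 3 and 3 over the 5 times. Kdm6a, an H3K27 demethylase gene, had a gained site with 0, 0, 4, 4 and 4. Srsf10, a splicing factor gene, had a site with 4 entries at 1 h and 0 at all other times.

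Among genes covered at both times, the largest differences toward fewer were of 6 entries. Foxp1, a forkhead factor of neuronal differentiation, went from 7 entries to 1 far inside the gene, 494368 bp from its 5′ end (chromosome 6, 99028376 to 99028380). Its sites 1060 to 1360 bp inside the gene held 2 at 0.5 h and 3 at 1 h, so the starts of Foxp1 differed in direction. Tspan4, a tetraspanin, held 7 and 1, in a region shared with Polr2l, a subunit of RNA polymerases, and Tbc1d2b, a Rab GTPase-activating protein, held 7 and 1. Igfbp4, which binds insulin-like growth factors, held 6 and 1, and 1 at both later times. Pex14, of peroxisome import, and Sppl2b, an intramembrane protease, held 6 and 1, the latter in a region shared with Lsm7. Pdzd8, a lipid transfer protein of the endoplasmic reticulum, and Lrrc41 held 7 and 2.

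The largest differences toward more were smaller, of 4 entries. Ube2d2a, a ubiquitin-conjugating enzyme, held 2 entries at 0.5 h and 6 at 1 h at all 3 of its sites, with 2 at 0 h, 2 at 1.5 h and 3 at 2 h. Lef1, a transcription factor of the Wnt pathway, held 3 and 7, and 7 at 0 h and at 1.5 h (chromosome 3, 131112153 to 131112156). For Ube2d2a the library of 1 h stood highest, and for Lef1 that of 0.5 h stood lowest. Usp33, a deubiquitinase, and Rnf19a, a ubiquitin ligase, held 1 and 4. Tarbp1, an RNA methyltransferase gene, Eya4, a phosphatase and transcriptional coactivator, Pgrmc1, a haem-binding membrane protein, Septin10, Socs6, a suppressor of cytokine signalling, and the splicing factor gene Sf3b1 each held 2 and 5. Of these, Pgrmc1, Septin10 and Sf3b1 held 2 again at 1.5 h and 2 h.

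Gene lists differed widely in how many covered members were lost, and the share over all covered genes was 6.21%. Over all genes, 27.8% held fewer entries at 1 h and 13.2% held more. Of 41 lists with 10 or more genes covered at 0.5 h, 20 lay above this share, 21 below it, and 11 had no lost gene. The lists overlap, they were chosen with results of these data known, and no test of a list was made. The median log2 ratio was 0 in each of the 47 lists, as over all genes.

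Lists of neural fate, of other transcription factors and of some signalling pathways had high shares. Other signalling lists lay near the share over all genes. Of 31 covered homeobox and Hox genes 5 were lost (16.1%), and of 50 covered Sox, Fox, Zic, Klf and GATA factor genes 7 (14%). Neither list had a gained gene, and the latter shares Zic5, Sox4 and Sox21 with the lists of neural fate. Of 15 covered proneural and neuronal transcription factor genes, 5 were lost, among them Neurog1, Sox4 and Ebf1, each from 2 entries to 0, and Eomes from 1. None of the 25 measured genes of this list held more entries at 1 h, and 8 held fewer. Sox11, a SoxC factor, went from 7 to 4. Sox4 held 6 entries at 1.5 h and 3 at 2 h. Of 15 covered progenitor genes 3 were lost, Zic5, Notch1 and Sox21, both of the latter from 1 entry, and Cdh2, the gene of N-cadherin, held 7 and 5. Of 22 covered Notch pathway genes 4 were lost, each from 1 or 2 entries, among them Notch1, the ligand-activating ligase gene Mib1 and the glycosyltransferase gene Rfng. The list of neuronal cytoskeleton and synapse genes had 3 of 22 covered genes lost (13.6%), Ank2, an ankyrin gene, from 2 entries and the synaptic genes Nrxn2 and Syp from 1. None of this list was gained, 2 held more entries and 10 fewer.

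The TGF-beta and BMP list had 8 of 30 covered genes lost, 16 of 33 measured genes with fewer entries and 1 with more. Lost were the ligand gene Tgfb1 (3 entries to 0), the latent TGF-beta binding protein genes Ltbp1 (3 to 0) and Ltbp3 (1 to 0), the BMP antagonist gene Nog (1 to 0) and the receptor gene Bmpr1a (3 to 0). Among intracellular regulators, the ubiquitin ligase gene Smurf2 (4 to 0), the SMAD co-repressor gene Skil (1 to 0) and the homeodomain repressor gene Tgif2 (3 to 0) were lost. Smad5, a BMP effector gene, held 5 and 2. At 1.5 h all 8 lost genes of this list were covered, Skil with 7 entries and Smurf2 with 5. In the Wnt list, 2 of 24 covered genes were lost (8.33%), Tcf7 from 1 entry and Tcf7l1 from 2. Pygo1, a co-activator of beta-catenin, was gained with 1 entry. Of the 33 measured Wnt genes 5 held more entries and 12 fewer.

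Of 41 covered MAP kinase and receptor tyrosine kinase genes 5 were lost and 20 of the 42 measured held fewer entries. Map3k1 went from 4 entries to 0, Rasa2 and Spred2, both negative regulators of Ras signalling, from 3, Spry1 from 2 and Elk3 from 1. The MAP kinase phosphatase genes Dusp4, with 7 and 4, and Dusp16, with 5 and 2, stayed covered. In the insulin list 2 of 28 covered genes were lost (7.14%), the kinase gene Akt1 from 5 entries and Rps6kb1, the S6 kinase gene, from 2. Of the 14 sites of Akt1, 1 held fewer entries at 1 h. Of 34 covered immediate early genes 3 were lost (8.82%), Jun, Junb from 1 entry and Btg1 from 2. Egr1 held 4 at both times, Fos 3 and 4, Myc 2 and 2, and Dusp1 5 and 5, so within this list Jun stood apart in the size of its difference. Its site lies 674 bp downstream of the 5′ end, against a median of 32 bp for the covered genes of this list.

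Of 48 covered histone methylation and acetylation enzyme genes 9 were lost and Kmt2a was gained. Besides Setd7, the lost genes were the demethylase genes Kdm2b (2 entries to 0), Kdm5a (4 to 0), Kdm5b (1 to 0) and Kdm7a (3 to 0), the methyltransferase genes Kmt2d (3 to 0) and Kmt5a (1 to 0), the deacetylase gene Hdac7 (2 to 0) and Jade2 (4 to 0), a subunit of an acetyltransferase complex. In this list 12 of 56 measured genes held more entries and 22 fewer. Among 64 covered remodeller, reader and chaperone genes 5 were lost (7.81%), among them Baz2a from 6 entries, Bptf from 2, and Cbx7 and Smarca2 from 1. Of 25 covered nuclear receptor and co-regulator genes 5 were lost, among them Nr3c1, the thyroid hormone receptor gene Thra from 3 entries and Rarg from 1. Of 15 covered clock genes 3 were lost, Nfil3 from 3 entries and Npas2 and Per1 from 1.

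Of the 41 lists, 11 had no lost gene, and others of basic cell functions lay below, near or above the share over all genes. No gene was lost among 60 covered genes of RNA polymerases and nucleolar or Wdr proteins, 43 translation factor and tRNA synthetase genes, 33 respiratory complex genes, 27 DNA repair genes, 23 mitosis genes, 21 mitochondrial ribosomal protein genes and 18 genes of the tricarboxylic acid cycle. The same was true of 48 Mediator, Integrator and general transcription genes, 25 genes of the unfolded protein and stress responses, 19 histone genes and 12 sterol synthesis genes. In the Mediator list Med12l and Med13l were gained at their scored sites, although 2 of the 5 sites of Med12l held fewer entries and 1 more. Of 39 covered cytosolic ribosomal protein genes only Rpl32 was lost, from 2 entries, and of 22 mitochondrial import and dynamics genes only Trak1. Of 11 covered glycolysis genes 1 was lost, the pyruvate kinase gene Pkm from 2 entries (9.09%). Of 32 covered G1/S and DNA replication genes 2 were lost (6.25%), the cell cycle factor genes E2f3 from 3 entries and E2f2 from 1. The ubiquitin and proteasome list lost 14 of 227 covered genes (6.17%), and of its 251 measured genes 47 held more entries and 81 fewer. The list of splicing factors and RNA helicases lost 3 of 115, Ptbp1, Rbm39 and Mbnl1 (2.61%), and Celf2 was gained at its scored site only in part of a mixed set of sites. In the mitosis list 6 of 23 genes held more entries and 3 fewer, led by the condensin gene Smc4 with 3 and 6. In the respiratory list 9 of 33 held more and 10 fewer, with Cox14, an assembly factor of cytochrome oxidase, at 6 and 2. In the translation list 21 of 46 held fewer and 6 more, among them the cap-binding protein gene Eif4e2 with 4 and 1.

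The lists also differed in where their scored sites lay. Covered genes lay a median of 208 bp downstream of their 5′ end over all genes, 298 bp in the TGF-beta list, 354 bp in the histone enzyme list, 296 bp in the proneural list, 146 bp in the list of RNA polymerases and 86 bp in the respiratory list. Their mean entries at 0.5 h were 2.77 over all genes, 2.6, 2.9, 2.87, 2.78 and 2.61 in these lists. The part of site position in the counts of lost genes was not tested.

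**Figure D4:**
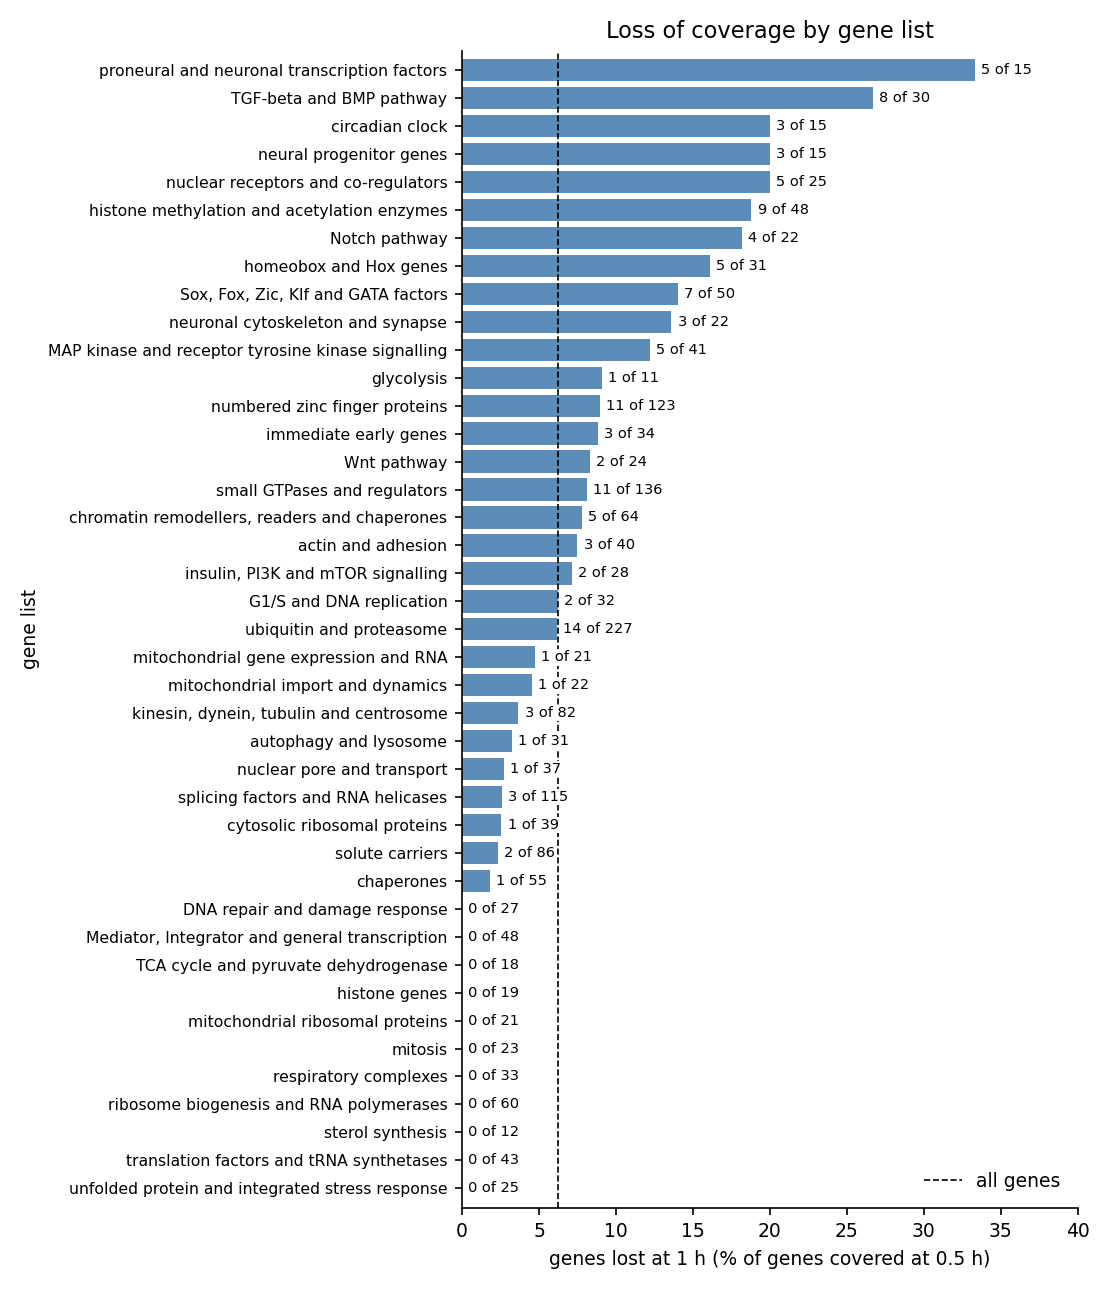
Share of the genes covered at 0.5 h that were lost at 1 h, in percent, for the 41 gene lists with 10 or more covered genes, with the numbers beside each bar and the share over all genes as a dashed line. The proneural list has the highest share, with 5 of 15, and 11 lists have none.

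Promoters of lost and kept genes were compared in base composition and in short motifs. A RefSeq promoter was matched to 5917 of the 8034 genes. The median number of CpG dinucleotides per 300 bases was 28 in the 272 matched lost genes, 30 in the 36 gained, 27 in the 4405 kept and 23 in the 1204 uncovered genes, against 7 over all 32851 promoters of the reference table. The lost share of covered genes was 9.72% with 0 to 9 CpGs (28 of 288), 4.72% with 20 to 29 (77 of 1633) and 8.41% with 40 or more (58 of 690). CCGGAAG, a core of ETS factor sites, was present on either strand in 7.72% of promoters of lost genes, 17.6% of kept, 2.78% of gained, 6.23% of uncovered genes and 8.86% of all promoters. GCGCATG, part of the site of NRF1, was in 2.94% of lost, 8.06% of kept and 3.91% of all promoters. ATTGG, the core of NF-Y sites, was in 28.7% of lost, 35.1% of kept and 37.4% of all promoters. GGGCGG was in 73.2% of lost and 77.5% of kept, TGANTCA, the AP-1 motif, in 2.57% and 3.7%, TGACGT, part of the cyclic AMP response element, in 8.82% and 13.2%, CACGTG, an E-box, in 9.19% and 11%, and TATAAA in 4.04% and 6.31%. For all promoters these shares were 35.7%, 7.81%, 7.51%, 7.15% and 13.6%. A match describes letters only. Where the scored site itself lay in the window, CCGGAAG was in 4.82% of 83 lost and 18.5% of 1824 kept genes, GCGCATG in 1.2% and 9.38%, and ATTGG in 21.7% and 34.8%. In these genes the order of GGGCGG turned, to 88% of lost and 85.4% of kept, and the median CpG number was 35 in lost and 31 in kept genes, with a median GC content of 73% and 68%.

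The X chromosome had the highest share of lost regions. Of 142 X-linked regions covered at 0.5 h, 19 were lost (13.4%), and on the autosomes the share ran from 4.1% on chromosome 16 to 7.98% on chromosome 15. By gene, 13 of 122 covered X-linked genes were lost (10.7%, Wilson 95% interval 6.33 to 17.4%) and 369 of 6030 autosomal genes (6.12%, 5.54 to 6.75%). The lost X-linked genes included Usp9x, a deubiquitinase (3 entries to 0), and Syp, the gene of the synaptic vesicle protein synaptophysin (1 to 0). Covered X-linked genes held a mean of 2.79 entries at 0.5 h, and autosomal genes 2.77.

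The libraries of 0, 1.5 and 2 h, which did not define the losses and gains of sites, set lost and gained sites apart from sites kept and sites uncovered, and not from each other. Of the 2874 lost sites, coverage at 0, 1.5 and 2 h was 27.9%, 93.1% and 87.6%. Of the 278 gained sites the shares were 28.1%, 91% and 83.8%. The shares of lost and gained sites were thus close in these 3 libraries, and both lay below those of the 17491 sites kept, with 87.9%, 99.8% and 99.3%. Of the 14071 sites uncovered at both times, 1.78%, 20.2% and 19% were covered. Lost sites held a mean of 2.69 entries at 1.5 h, and kept sites 2.86. Of the lost sites, 1750 (60.9%) were covered at 1.5 and 2 h but not at 0 h, 676 (23.5%) lacked an entry at 1 h alone, and 88 (3.06%) in no library but that of 0.5 h. For the 382 lost genes the shares at 0, 1.5 and 2 h were 51%, 91.1% and 81.7%, and 16 were covered at 0.5 h only. The scored site of a gene was chosen by its mean over all 5 libraries, so high coverage in these 3 is partly built into the gene shares. These are the values of single libraries, with total entries of 42527, 65824 and 59437 at 0, 1.5 and 2 h.

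**Figure D5:**
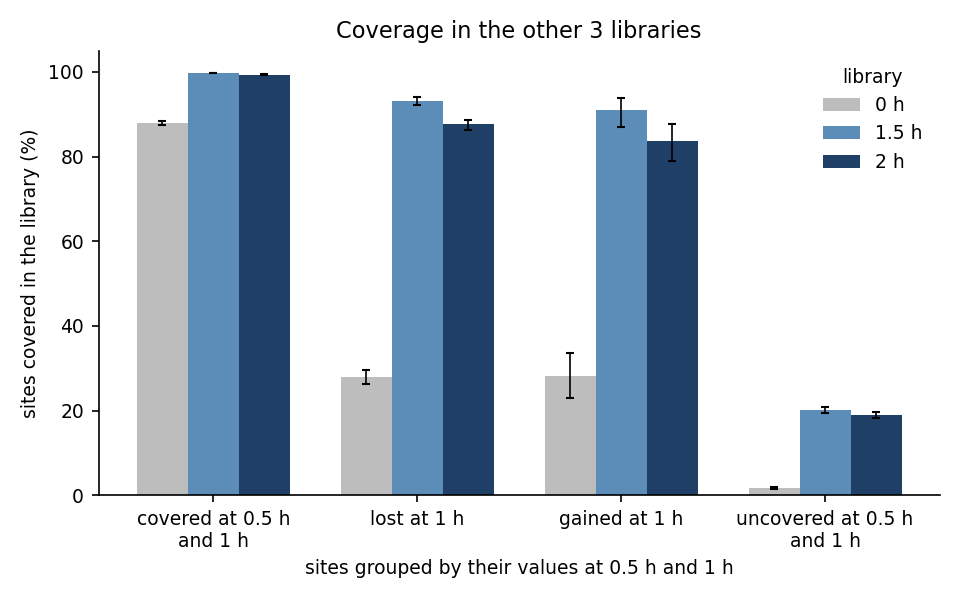
Share of sites covered in the libraries of 0, 1.5 and 2 h, in percent with Wilson 95% intervals over sites, for sites covered at 0.5 h and 1 h, lost at 1 h, gained at 1 h, and uncovered at both. Lost sites were covered in 93.1% of cases at 1.5 h and in 27.9% at 0 h, and gained sites in 91% and 28.1%.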

How the data were processed

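ATAC-seq of C17.2 cells gave 1 library at each of 0, 0.5, 1, 1.5 and 2 h. Per the submitters' processing notes, the authors used Bowtie2, MACS2, deepTools and build GRCm38 (mm10). Versions, settings, transposase shift, duplicate handling and where the site list came from were not given in the sources used here. Whole numbers per site were deposited by the authors, in columns named after BED files per the file headers. That they are numbers of entries is an inference from the values. They were therefore not treated as read counts. Although the planned design allowed for counts or signal, no count model, library-size test or p-value was used, and depth and precision are unknown. Merged regions took the highest value of their sites. Gene symbols and strands are those of the table, and 5′ ends came from RefSeq GRCm38.p6, which matched 7588 of 8034 symbols on the same chromosome. Log2 ratios used a pseudocount of 1. Shares carry Wilson 95% intervals. Motifs were searched on both strands. Python 3.11.15, pandas 2.3.3, numpy 2.4.6 and scipy 1.17.1 were used. The code that classifies sites was run on the 0.5 h values with losses and gains set by hand, and returned them. That checks the code and not the error of a call.

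The members and gene lists were chosen with earlier results of these data known. Named genes were, per direction, the 15 gained or lost with the most entries and the 10 covered at both times with the largest difference, 1 per region, without Gm, Rik, unmatched or Galnt2l symbols, and list members gained, lost or, up to 4 per list, most different. Alternatives changed the site of a gene, the coverage threshold, the merge distance, the filter, the pseudocount and the scaling. Some genes that this rule selects are not reported here.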

Additional observations from a re-analysis of the deposited data

How the results depend on the processing

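Losses outnumbered gains for sites, regions and genes under every alternative run, and of 44 recomputed counts 34 lay within 1.5 times the main one. With coverage called at 2 or more entries, 910 sites were gained, 809 regions lost and 252 gained, and 754 genes lost and 255 gained, so the ratio of lost to gained genes was 2.96 in place of 8.13. With a merge distance of 200 bp, 630 regions were lost. Restricted to the 4921 genes whose mean over 0, 1.5 and 2 h reached the median gene, 353 were 2-fold lower or more and 52 higher, as fewer genes were counted. Scaling to equal total entries left 310 genes at least 2-fold lower, and 4108 genes with more entries against 2091 with fewer, since equal whole numbers then count as higher. Where the site of a gene was chosen on 0, 1.5 and 2 h alone, 442 genes were lost and 53 gained. The cause of the other shifts was not tested. No paired analysis was possible because each time has 1 library, and for the same reason no library could be left out. Read depth is unknown, so a site at 0 entries may be open, and how many losses go with the lower total of the 1 h library was not tested.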
